A study of Mus musculus with 10 samples.

Results

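The intracellular triglyceride lipases and their cofactors were followed through restriction and refeeding in mouse liver. The 6 genes were taken by symbol from the deposited count table. They are Pnpla2, Abhd5, G0s2, Lipe, Mgll and Lipa, and they make up 6 of its 17359 genes. All 6 passed the filter on low counts, as did 12789 genes in all. All groups, the controls included, ate a high-fat diet. The 3 control libraries (AL) came from livers of mice fed freely. The other mice followed a weekly cycle: days 1 and 4 brought 50% fewer calories, days 2 and 3 brought 70% fewer, and food was unlimited from day 5 through day 7. The 4 libraries of the restricted phase (LC) were taken on day 3 of this cycle and the 3 of the refed phase (RF) on day 7. RNA integrity numbers were between 6.6 and 8.5, per the labels. The labels give neither the strain, age and sex of the mice nor the hour of collection, and they do not say that each library is a separate animal. P-values therefore measure the spread between these libraries, which may be technical.

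Stored triglyceride is broken down in steps. The patatin-domain lipase encoded by Pnpla2, also called ATGL, removes the first fatty acid at the lipid droplet surface. The protein of Abhd5, known as CGI-58, is its coactivator, and the small protein of G0s2 is its inhibitor. Hormone-sensitive lipase, encoded by Lipe, acts mainly on the diglyceride that results and is best known from adipose tissue. Monoglyceride lipase, encoded by Mgll, releases the last fatty acid and also degrades the endocannabinoid 2-arachidonoylglycerol. Lysosomal acid lipase, encoded by Lipa, works apart from these, on triglycerides and cholesteryl esters that reach the lysosome by endocytosis or by autophagy of droplets.

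Abhd5, Lipa and Mgll were the members whose transcripts passed a test in some comparison, and the bases before their start sites are shown for that reason. Each sequence below is the 250 bases upstream of the annotated start, from RefSeq on build GRCm38.p6, read 5′ to 3′ along the gene. Capitals mark matches to a searched motif. The Abhd5 stretch is chr9:122351366-122351615, plus strand. The Lipa stretch is chr19:34527475-34527724, minus strand. The Mgll stretch is chr6:88724162-88724411, plus strand, for the first of 2 annotated starts.
Abhd5: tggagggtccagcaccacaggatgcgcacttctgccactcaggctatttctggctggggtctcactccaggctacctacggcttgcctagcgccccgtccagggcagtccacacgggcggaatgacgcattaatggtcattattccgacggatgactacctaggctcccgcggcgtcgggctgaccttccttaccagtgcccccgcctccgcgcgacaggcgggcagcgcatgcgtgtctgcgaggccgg
Lipa: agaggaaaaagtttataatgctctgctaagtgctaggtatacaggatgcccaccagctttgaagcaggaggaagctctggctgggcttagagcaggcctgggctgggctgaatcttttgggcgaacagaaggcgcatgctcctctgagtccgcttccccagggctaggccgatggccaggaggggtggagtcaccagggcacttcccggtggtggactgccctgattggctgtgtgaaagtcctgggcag
Mgll: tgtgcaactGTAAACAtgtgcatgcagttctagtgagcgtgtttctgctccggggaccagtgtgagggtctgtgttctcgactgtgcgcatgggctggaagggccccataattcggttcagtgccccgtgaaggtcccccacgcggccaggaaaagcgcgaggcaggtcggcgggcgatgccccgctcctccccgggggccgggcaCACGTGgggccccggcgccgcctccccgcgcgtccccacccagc
The motifs searched on both strands, over windows of 300 bases that run 50 bases past the start, were the E-box CACGTG, the lysosomal gene motif CLEAR, which contains it, the nuclear receptor repeat DR1, the forkhead motif GTAAACA and the cyclic AMP element TGACGTCA. They occur in 7.15%, 0.326%, 0.0396%, 3.65% and 1.79% of all 32851 promoter windows, in that order. The Mgll stretch held GTAAACA at position -241 and CACGTG at position -44 relative to the start. Neither the Abhd5 nor the Lipa window held any of the 5 motifs. The windows of Pnpla2 and G0s2 held none either, and Lipe had CACGTG at position -155 of one start and GTAAACA at position -119 of the other. GC content was 67.7% in the Abhd5 window, 59.3% in that of Lipa and 70% in that of Mgll, against a median of 52.7% over all windows. It was also above that median for the members that passed no test, at 65.3% for Pnpla2, 66.7% for G0s2 and 61% and 60% for Lipe. The window of the second Mgll start had 72.3% and none of the 5 motifs. These matches describe the letters of the windows and show no binding.

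Library totals were 13871533 to 15899479 expected counts, and the groups' ranges overlapped. Hepatocyte markers were the most abundant of the cell type lists, with a summed level of 78107 to 124064 CPM over 11 genes. CPM are counts scaled by the library total times a TMM factor (trimmed mean of M values). The controls were at 104522 to 124064 CPM, LC at 78107 to 85214 CPM and RF at 96057 to 102779 CPM. The TMM factors were 0.827 to 0.952 in AL, 1.06 to 1.18 in LC and 0.964 to 0.969 in RF libraries. A larger factor lowers the CPM, so this scaling itself moved the hepatocyte sums of LC down against those of AL. With the factors taken out, LC replicate 3 (85214 CPM, factor 1.18) would lie above AL replicate 2 (104522 CPM, factor 0.952). The gap between AL and LC in this sum is therefore present under TMM scaling and absent on library totals alone. All marker sums and calls here are given under TMM scaling only. Of 10 adipocyte markers listed, 9 were in the table, and their sum was 82.0 to 188 CPM at AL, 63.7 to 97.1 CPM at LC and 39.9 to 66.0 CPM at RF. Nearly all of it came from Cfd, Adrb3 and Fabp4. Of the 4 adipocyte markers tested, 2 (Cfd and Cidea) fell and 0 rose at LC against AL, and 0 were called at RF against LC. Cfd was at 49.2 to 142 CPM in AL, 2.83 to 18.5 CPM in LC and 1.47 to 3.13 CPM in RF libraries. Adipoq, which defines adipocytes, was at 0 to 0.0780 CPM in the 10 libraries and Plin1 at 0 to 0.554 CPM. Of the 11 hepatocyte markers tested, 7 fell at LC against AL and 5 rose at RF against LC. Of 10 endothelial markers 5 rose at LC against AL. At RF against LC 3 of these 10 fell (Stab2, Stab1 and Egfl7) and 1 rose (Clec4g). The endothelial sum was 225 to 244 CPM in AL, 347 to 380 CPM in LC and 301 to 351 CPM in RF libraries. Of 9 stellate cell markers 1 (Col1a1) fell at LC against AL and 5 rose at RF against LC. Their sums were 179 to 197 CPM in AL, 143 to 194 CPM in LC and 231 to 261 CPM in RF libraries. Of 12 macrophage markers 3 fell at LC against AL (Lyz2, C1qb and Mpeg1, median of the list -0.48) and 2 rose at RF against LC (Lyz2 and Mpeg1, median 0.41). Their sum was 163 to 245 CPM in AL, 131 to 234 CPM in LC and 177 to 248 CPM in RF libraries. Of all genes tested, 15.6% fell and 16% rose at LC against AL, while 11.4% rose and 10.7% fell at RF against LC. The part of these markers in the results for the lipases was not tested. In bulk tissue, fewer cells of a type and less RNA per cell cannot be told apart.

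Per length of transcript, the inhibitor G0s2 was far above the lipases. It was at 464 to 1127 FPKM over the 10 libraries. Mgll came next at 57.7 to 98.8 FPKM and was above Pnpla2, at 27.8 to 60.9 FPKM, in every library. Lipa was at 24.03 to 45.9 FPKM. Abhd5, at 6.13 to 10.5 FPKM, and Lipe, at 5.73 to 10.9 FPKM, were the lowest. The order of Pnpla2 and Lipa differed between the groups. Pnpla2 was above Lipa in 3 of 3 AL and 4 of 4 LC libraries, by 1.08 to 2.47 times, whereas Lipa was above Pnpla2 in 3 of 3 RF libraries. Abhd5 and Lipe could not be ordered, since Abhd5 was the higher in 2 of 3 AL, 1 of 4 LC and 3 of 3 RF libraries.

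**Figure D1:**
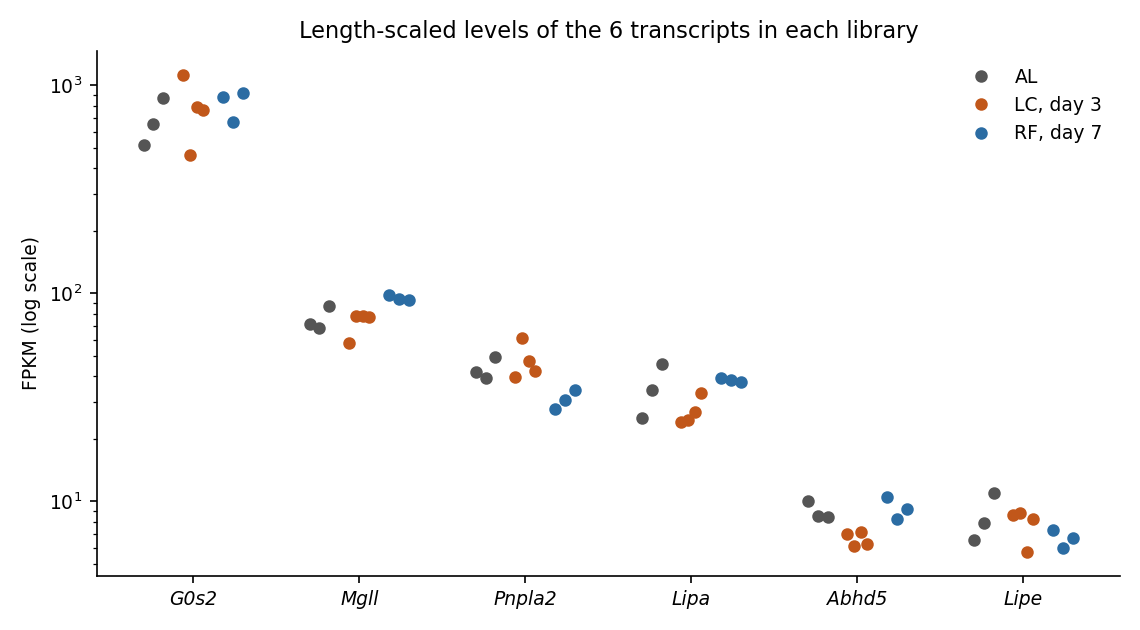
FPKM, on a log scale, of the 6 transcripts in each of the 10 libraries, with 1 point per library coloured by group. G0s2 lies at 464 to 1127 FPKM, far above the others, and Abhd5 and Lipe lie lowest, between 5.73 and 10.9 FPKM.

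The comparison of LC with AL asked how restriction at day 3 left the lipolytic genes. Abhd5, the coactivator gene, fell to 0.550 of its control level, and Lipa, the lysosomal lipase gene, fell to 0.624 of it. Pnpla2, G0s2, Lipe and Mgll did not pass. So 2 of 6 members fell and none rose. Over all genes tested, 15.6% were called lower and 16% higher, 31.5% in all. The median log2 fold change of the members was -0.40, against 0.05 over all genes tested. With library totals alone these were -0.09 and 0.36.

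Abhd5 (NCBI gene 67469) is on chromosome 9. Its level was 28.0, 29.7 and 26.6 CPM in AL replicates 2, 3 and 4, and 15.7, 14.5, 15.9 and 15.6 CPM in LC replicates 1 to 4. The 4 restricted libraries lay close together and well below the lowest control. How many of all genes separate 2 groups in this way was not counted, so such separations, here and below, are descriptions only. The control mean was 28.1 ± 1.52 CPM (SD, n = 3) and the restricted mean 15.4 ± 0.659 CPM (n = 4). The log2 fold change was -0.86 (SE 0.12, 95% interval -1.11 to -0.61), with an adjusted p of 0.00037 in edgeR's quasi-likelihood test. It was called under all 20 alternatives. The size depended on the scaling, with -0.54 on library totals alone and -0.40 on log2(FPKM + 1). An annotated antisense gene covers 16% of the Abhd5 exon bases, and libraries without strand cannot separate its reads.

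Lipa (NCBI gene 16889), on chromosome 19, was at 72.1, 113 and 136 CPM in AL replicates 2, 3 and 4. In LC replicates 1 to 4 it was at 57.0, 63.2, 62.4 and 84.8 CPM. The groups overlapped, because LC replicate 4 lay above AL replicate 2. The mean was 107 ± 32.6 CPM for the controls and 66.9 ± 12.3 CPM under restriction. The fall was -0.68 on the log2 scale (SE 0.19, 95% interval -1.09 to -0.27, adjusted p = 0.016). The call was lost without AL replicate 3 (adjusted p = 0.065) or AL replicate 4 (0.098), with library totals alone (-0.36, 0.12) and in the FPKM table (-0.33, 0.16).

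The lipase Pnpla2 (NCBI gene 66853, chromosome 7) had levels of 105, 112 and 129 CPM in the controls, and LC replicates 1 to 4 had 82.3, 137, 95.9 and 94.7 CPM. The highest and the lowest of these libraries were both restricted. The log2 difference was -0.17 (SE 0.16, 95% interval -0.52 to 0.18, adjusted p = 0.45), and its sign turned on library totals alone (0.14) and in the FPKM table (0.12). Its inhibitor gene G0s2 (NCBI gene 14373, chromosome 1) had 322, 459 and 555 CPM in the controls, while the LC libraries had 587, 260, 394 and 425 CPM. The 4 restricted libraries spanned the whole range of the controls and more. The log2 difference was -0.10 (SE 0.25, 95% interval -0.64 to 0.45, adjusted p = 0.80), with a sign that turned under 5 of 20 alternatives. These were library totals alone (0.23), both FPKM offsets (0.17) and the fits without AL replicate 4 (0.09) or LC replicate 2 (0.07). LC replicate 2 had the highest Pnpla2 and the lowest G0s2 of the LC libraries, and LC replicate 1 the reverse.

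Mgll (NCBI gene 23945, chromosome 6) had 250, 273 and 317 CPM in the controls, while restriction gave 166, 241, 219 and 238 CPM. In these TMM-scaled CPM every restricted library lay below every control. In FPKM, by contrast, LC replicates 2, 3 and 4 (78.15, 78.12 and 77.06) lay above AL replicates 2 and 3 (71.5 and 68.06). In the edgeR fit the log2 difference of -0.38 (SE 0.15, 95% interval -0.69 to -0.06) had an adjusted p of 0.065. DESeq2 called it (0.033), as did limma voom with sample weights (0.024) and the fit without AL replicate 2 (0.040), while on library totals alone the difference was -0.07. Lipe (NCBI gene 16890, chromosome 7) had 17.6, 24.3 and 29.9 CPM in the controls, while restriction gave 18.8, 20.5, 12.8 and 19.6 CPM. The groups overlapped, with AL replicate 2 among the restricted libraries. Its log2 difference was -0.42 (SE 0.19, adjusted p = 0.11), and limma voom with sample weights (0.028) and the fit without AL replicate 2 (0.025) called it. It shrank to -0.11 (0.66) on library totals alone, to -0.09 (0.72) in the FPKM table and to -0.23 (0.45) without AL replicate 4. An annotated antisense gene covers 15.6% of the Lipe exon bases, and another covers 3.29% of those of Mgll.

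**Figure D2:**
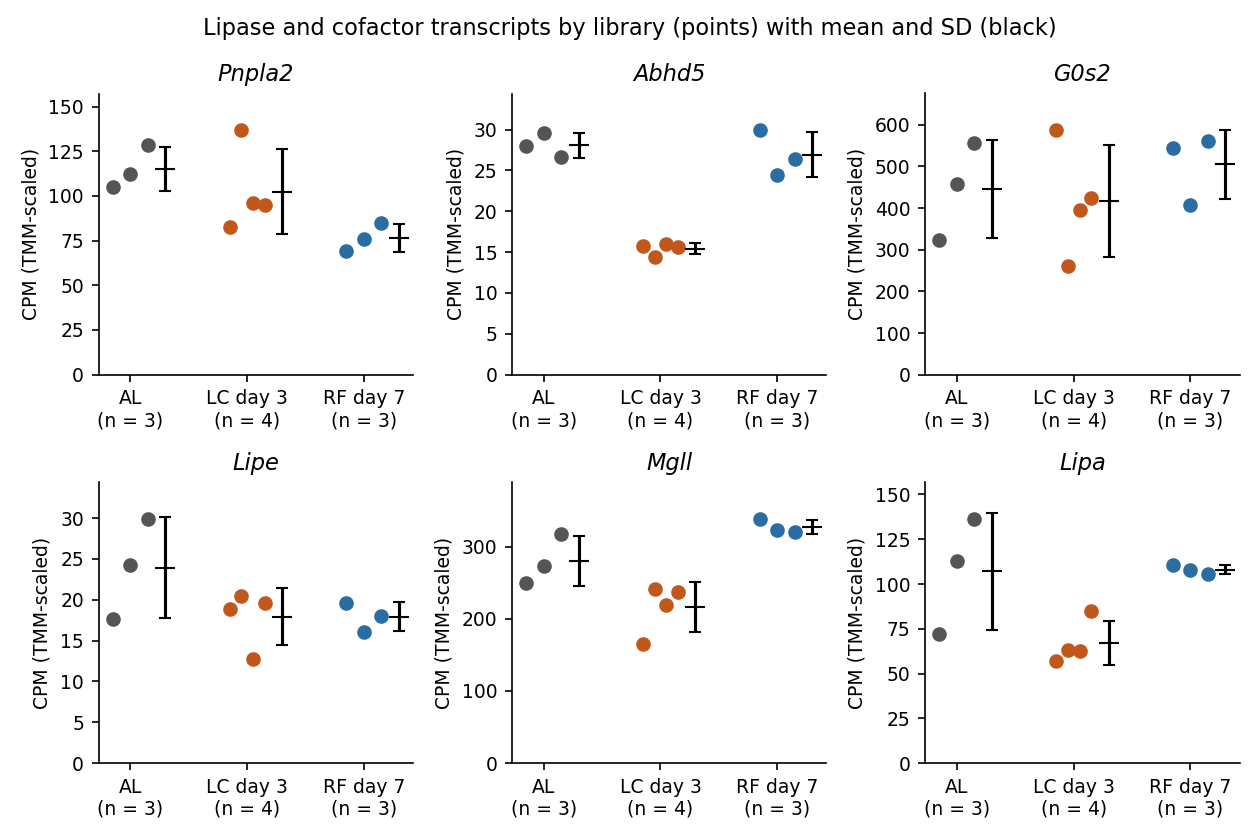
CPM of each member in the 10 libraries, after TMM scaling (trimmed mean of M values). Points are libraries, and the black mark and bar give the mean and SD of the group (n = 3, 4 and 3). The 4 restricted Abhd5 values sit between 14.5 and 15.9 CPM, below every AL and RF library.

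The comparison of RF with LC asked what free feeding from day 5 to day 7 changed. Abhd5, Lipa and Mgll rose, and none of the members fell. That is 3 of 6 members called higher, where 11.4% of all genes tested were called higher and 10.7% lower, 22.1% in all. The median log2 fold change of the members was 0.44, against -0.02 over all genes tested, or 0.23 and -0.22 with library totals alone. These values share the LC libraries with the comparison above, so a low LC level moves both.

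Abhd5 was at 29.9, 24.5 and 26.4 CPM in RF replicates 1 to 3, all above the highest LC library. It rose 1.75-fold, by 0.80 on the log2 scale (SE 0.12, 95% interval 0.55 to 1.06, adjusted p = 0.00099), and was called under all 20 alternatives. Mgll was at 339, 323 and 320 CPM at RF, again above every LC library, with a mean of 327 ± 10.2 CPM against 216 ± 34.9 CPM. The rise was 1.52-fold (log2 0.60, SE 0.15, 95% interval 0.29 to 0.91, adjusted p = 0.012). It too was called under all 20 alternatives, with adjusted p of 0.0012 to 0.047. Lipa was at 111, 108 and 106 CPM at RF. These 3 libraries lay close together, at 108 ± 2.35 CPM, and above the 4 of LC. The rise was 1.62-fold (log2 0.69, SE 0.19, 95% interval 0.29 to 1.10, adjusted p = 0.020). It missed the threshold under 7 of 20 alternatives. These were library totals alone (0.053), both offsets of the FPKM table (0.055 and 0.056), and the fits without LC replicate 1 (0.055), RF replicate 1 (0.056), RF replicate 2 (0.060) or RF replicate 3 (0.053).

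Pnpla2 did not pass. It was at 68.9, 75.7 and 84.8 CPM at RF, of which the highest lay just above LC replicate 1, the lowest of LC. The log2 difference from LC was -0.42 (SE 0.17, 95% interval -0.78 to -0.07, adjusted p = 0.083). It was called on library totals alone (-0.62, 0.012), in the FPKM table (-0.59, 0.014) and without LC replicate 1 (-0.51, 0.049). It shrank to -0.25 (0.20) without LC replicate 2 and to -0.35 (0.23) without RF replicate 1. G0s2, at 543, 408 and 562 CPM at RF, overlapped LC and differed by 0.28 (SE 0.25, 95% interval -0.27 to 0.82, adjusted p = 0.46). Lipe, at 19.6, 16.1 and 18.1 CPM, also overlapped LC, with a log2 difference of 0.002 (95% interval -0.41 to 0.42, adjusted p = 0.99).

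How refed livers stood against freely fed controls was read from RF and AL. None of the 6 members was called by edgeR. An unadjusted p below 0.05 was found for 1 of them, Pnpla2, and for 1381 of all 12789 genes tested. DESeq2 called 0 of them and limma voom 0. Over all genes tested, 0.0547% were called, 0.0156% higher and 0.0391% lower. Pnpla2 was lower in all 3 RF libraries than in any control, with means of 76.5 ± 7.95 CPM at RF and 115 ± 12.3 CPM at AL (n = 3 each). The log2 difference was -0.59 (SE 0.18, 95% interval -0.97 to -0.21), with an unadjusted p of 0.0047 and an adjusted p of 0.27. It kept its sign under all 20 alternatives, at -0.69 to -0.47, and passed the threshold under 0 of them. Abhd5 differed from AL by -0.06 (95% interval -0.33 to 0.21, adjusted p = 0.90). Lipa differed by 0.01 (95% interval -0.42 to 0.45, adjusted p = 0.99), with 3 RF libraries inside the range of the controls, and by -0.21 without AL replicate 2 and 0.23 without AL replicate 4. Mgll was higher in 3 of 3 RF libraries than in any control, by 0.22 (95% interval -0.11 to 0.56, adjusted p = 0.63). The share of all genes that separate RF from AL in this way was not counted. The separations of Pnpla2 and Mgll are therefore not read as results. Lipe differed by -0.42 (95% interval -0.86 to 0.02, adjusted p = 0.48) and G0s2 by 0.18 (95% interval -0.40 to 0.76, adjusted p = 0.84).

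**Figure D3:**
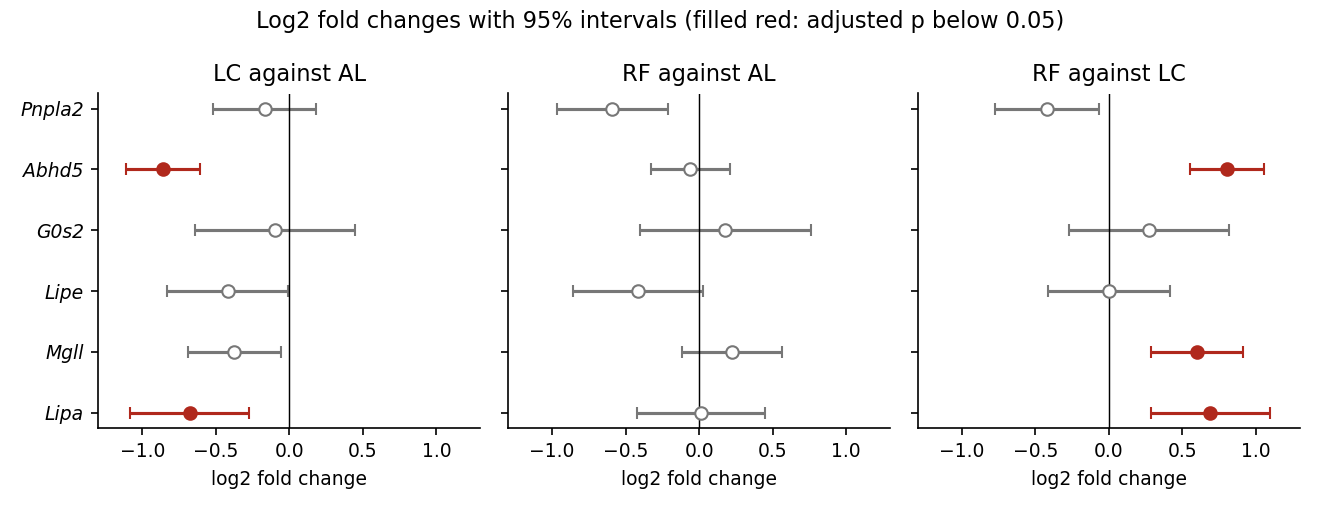
Log2 fold changes of the 6 members in each comparison, with 95% intervals that are not adjusted for the number of genes. Filled red points passed the adjusted threshold of 0.05, and they are Abhd5 (-0.86) and Lipa (-0.68) at LC against AL and Abhd5 (0.80), Mgll (0.60) and Lipa (0.69) at RF against LC.

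The choice of scaling moved all fold changes, and by more in the comparisons that involve LC. With library totals alone, the median log2 fold change of all genes was 0.36 at LC against AL, -0.22 at RF against LC and 0.12 at RF against AL. With the trimmed mean of M values it was 0.05, -0.02 and 0.01 in that order. Abhd5 at RF against AL, not called, went from -0.06 with TMM scaling to 0.05 on library totals alone. Of the genes called at LC against AL, 86.5% were higher with library totals alone, against 50.7% with TMM scaling. Between these scalings all genes shift alike, so a gene's place relative to the median of all genes is nearly fixed by construction. Relative to that median, Abhd5 at LC against AL stood at -0.91 with TMM scaling and at -0.61 on log2(FPKM + 1). Lipa stood at -0.73 and -0.54 in the same order, and Mgll at RF against LC at 0.61 and 0.54.

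**Figure D4:**
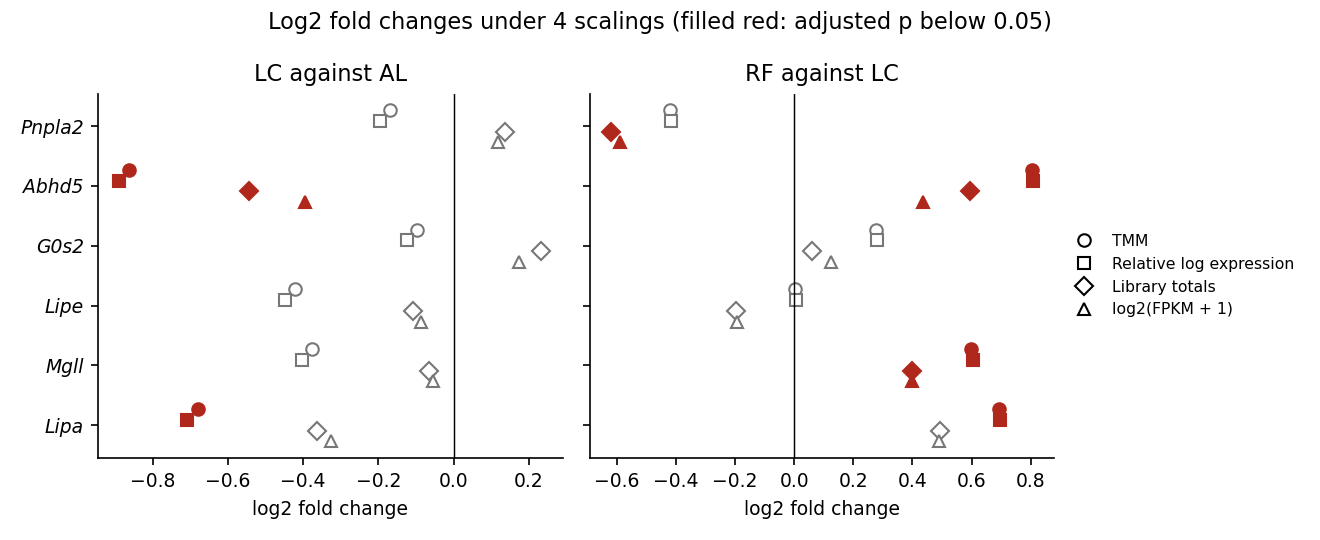
Log2 fold changes of the members at LC against AL and at RF against LC under 4 scalings, 1 symbol each, filled red where the adjusted p was below 0.05. Abhd5 is filled under all 4 in both panels, Lipa only under TMM and relative log expression, and Pnpla2 only under library totals and log2(FPKM + 1) at RF against LC.

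The balance of the lipase and its coactivator against the inhibitor was read within each library as a ratio of FPKM. G0s2 was 12.3, 16.7 and 17.6 times Pnpla2 at AL, 28.5, 7.62, 16.6 and 17.8 times at LC and 31.7, 21.7 and 26.6 times at RF. The RF libraries were all above the AL ones, and LC spanned nearly the whole range. On the log2 scale the ratio of Pnpla2 to G0s2 was -3.94 ± 0.278 at AL, -3.99 ± 0.788 at LC and -4.72 ± 0.273 at RF. The difference of RF from AL was -0.78, with p = 0.10 in a two-sided exact permutation test, the smallest that 3 against 3 libraries allow, and 0.34 adjusted over the 6 ratio tests. RF against LC gave -0.73 (exact permutation p = 0.17) and LC against AL -0.05 (p = 0.86), where the smallest possible p is 0.057. These differences were -1.01 and 0.23 without LC replicate 1, and -0.37 and -0.41 without LC replicate 2. The log2 ratio of Abhd5 to G0s2 was -6.20 ± 0.512 at AL, -6.82 ± 0.453 at LC and -6.45 ± 0.158 at RF. None of its 3 differences, -0.62, 0.37 and -0.25 for LC against AL, RF against LC and RF against AL, had an exact permutation p below 0.17.

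Droplet proteins and other regulators of the lipases were read from a list of 20 genes, of which 19 were tested. Of all genes tested, 15.6% fell and 16% rose at LC against AL, and 11.4% rose and 10.7% fell at RF against LC. These shares apply to this list and to each list below. At LC against AL 8 fell and 1 rose, and the median was -0.41 (-0.10 with library totals alone). Cideb, a droplet protein gene that also serves lipoprotein loading, went from 212 ± 33.9 to 90.9 ± 18.2 CPM (-1.22, SE 0.16, adjusted p = 0.00036). Fitm1, of droplet formation, went from 93.3 ± 21.5 to 40.1 ± 9.05 CPM (-1.22), and Arf1, a GTPase of the coat that carries ATGL to droplets, from 150 ± 19.95 to 94.3 ± 6.35 CPM (-0.67). At RF against LC 5 rose and 1 fell, with a median of 0.33 (0.13 with library totals alone). The number that rose was 3 without LC replicate 1, LC replicate 3, RF replicate 2 or RF replicate 3. Plin4, a droplet coat gene, was the gene that rose at LC (1.13, adjusted p = 0.028). That call was lost without AL replicate 3 (0.077), AL replicate 4 (0.083), LC replicate 1 (0.069) or LC replicate 4 (0.058), with no filter (0.054) and with the replicate number as a block (0.13). It was also the gene that fell at RF against LC, from 178 ± 65.1 to 19.9 ± 5.10 CPM (-3.16, SE 0.37, adjusted p = 0.00095). Its AL level was 81.4 ± 28.1 CPM, so the RF mean also lay below that of the controls. At RF against AL Plin4 differed by -2.03, not called by edgeR (adjusted p = 0.12) but called by DESeq2 (-2.05, adjusted p = 4.0e-07). Plin2, the main hepatic droplet coat gene, was at 918 ± 62.2, 578 ± 272 and 740 ± 180 CPM at AL, LC and RF and did not pass. Nor did Plin5, which holds ATGL and CGI-58 at the droplet (40.9 ± 2.53, 31.4 ± 10.9 and 38.5 ± 8.04 CPM), or Hilpda, another ATGL inhibitor (6.88 ± 1.44, 4.36 ± 0.427 and 7.22 ± 3.44 CPM). Plin2 was called at LC against AL by voom with sample weights (0.041) and without LC replicate 2 (-0.97, 0.015), and Plin5 without LC replicate 4 at LC against AL (0.011) and at RF against LC (0.030). Hilpda was called at LC against AL in the fit of these groups alone (0.031), and without RF replicate 1 in both comparisons (0.033 and 0.013).

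Other hydrolases of neutral lipid moved both ways. Of 20 tested, 4 fell and 3 rose at LC against AL, close to the shares over all genes (15.6% and 16%). The median was -0.22, and it became 0.09 with library totals alone, where 8 rose and 4 fell. Ces2c, a carboxylesterase gene with close copies, went from 80.8 ± 24.1 to 15.98 ± 10.3 CPM (-2.34, SE 0.43, adjusted p = 0.0047). Aadac, an arylacetamide deacetylase of the endoplasmic reticulum, fell (-0.70, adjusted p = 0.0015), as did Pnpla7, a lysophospholipase gene related to Pnpla2 (-0.71, adjusted p = 0.0015). Ces1d, whose product hydrolyses triglyceride at the endoplasmic reticulum and which also has close copies, rose from 999 ± 237 to 1707 ± 377 CPM (0.77, adjusted p = 0.016). At RF against LC 5 rose and 4 fell, with a median of 0.02 that became -0.18 with library totals alone, where 4 rose and 7 fell, and 3 rose without RF replicate 2. Pnpla3, the nearest relative of Pnpla2, went from 0.819 ± 0.105 to 8.08 ± 6.39 CPM (3.28, SE 0.62, adjusted p = 0.0061; 0.14 with voom). Its 3 RF libraries were at 8.25, 14.4 and 1.61 CPM, and the last lay inside the AL range of 0.546 to 1.79 CPM. The hepatic lipase gene Lipc was at 139 ± 17.6, 144 ± 6.72 and 142 ± 0.406 CPM. Its difference at LC against AL was 0.05 (adjusted p = 0.77), or 0.37 and called on library totals alone (0.019). Lpl, the lipoprotein lipase gene, was at 46.0, 8.97 and 14.6 CPM at AL and did not pass at LC (33.0 ± 8.12 CPM, 0.51, adjusted p = 0.50). Without AL replicate 2 its difference was 1.48 (adjusted p = 0.014).

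Cyclic AMP signalling through protein kinase A drives lipolysis in adipocytes. Of 24 tested genes of that route 5 rose and 3 fell at LC against AL, where 16% and 15.6% of all genes did (median 0.11, and 0.43 with library totals alone, where 8 rose and none fell). The number that rose was 3 without AL replicate 3, AL replicate 4, LC replicate 1, LC replicate 4, RF replicate 1 or RF replicate 3. Adcy6, an adenylate cyclase gene, rose from 94.0 ± 5.95 to 236 ± 43.8 CPM (1.33, SE 0.17, adjusted p = 0.00030), and the glucagon receptor gene Gcgr from 514 ± 101 to 840 ± 109 CPM (0.71, adjusted p = 0.0045). Prkaca, the catalytic subunit of protein kinase A, fell from 35.4 ± 3.72 to 22.5 ± 2.77 CPM (-0.65, adjusted p = 0.0034; -0.33 and 0.093 with library totals alone). At RF against LC Adcy6 (-1.20) and Gcgr (-0.82) fell and Prkaca (0.66) rose, 2 of 24 in each direction (median 0.08, and -0.12 with library totals alone, where 1 rose and 4 fell, and 1 and 2 without RF replicate 1).

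Mgll acts in monoglyceride and endocannabinoid turnover, and other genes of these routes were read from a list that also holds receptors. Of 10 such genes tested, 3 fell and 1 rose at LC against AL, where 15.6% and 16% of all genes did. The median was -0.23 (0.08 with library totals alone, where 3 rose and 1 fell). The number that fell was 1 without AL replicate 3, and none rose when any 1 of the AL libraries was dropped, or LC replicate 2, or LC replicate 3. Abhd4, a lipase of N-acyl phospholipids, went from 34.7 ± 5.45 to 20.6 ± 1.72 CPM (-0.75, adjusted p = 0.0028). Abhd12, another monoglyceride hydrolase, fell (-0.60, adjusted p = 0.012; 0.13 with library totals alone, 0.068 without AL replicate 3 and 0.053 without AL replicate 4). It was the 1 gene of this list that rose at RF against LC (0.63, adjusted p = 0.013; 0.056 without RF replicate 2), and none fell. With a library left out, 2 rose without AL replicate 2 or LC replicate 2, none rose without RF replicate 2 and 1 fell without LC replicate 1. The median was 0.17 there, or -0.04 with library totals alone, where 1 rose and 2 fell. Naaa (-0.66, adjusted p = 0.033) lost its call at LC against AL under 9 of 20 alternatives. These were library totals alone (0.26), both FPKM offsets (0.21 for each) and the compared groups alone (0.0505). The others were the fits without AL replicate 2 (0.10), AL replicate 3 (0.11), LC replicate 1 (0.076), LC replicate 2 (0.056) or LC replicate 4 (0.071).

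Lipa works among lysosomal proteins, which macrophages also hold in plenty. Beside the lysosomal genes, 3 of 12 macrophage markers fell at LC against AL and 2 rose at RF against LC, and their part was not tested. Of 25 tested genes of the lysosome, of autophagy and of cholesteryl ester synthesis, 11 fell and 1, Soat2, rose at LC against AL. Of all genes tested, 15.6% fell and 16% rose. The median was -0.32, or -0.01 with library totals alone, where 8 fell and 4 rose. Ctsb, a cathepsin gene, went from 513 ± 31.2 to 269 ± 42.0 CPM (-0.93, SE 0.13, adjusted p = 0.00051), and the autophagy receptor gene Sqstm1 from 325 ± 33.5 to 183 ± 11.02 CPM (-0.83). Soat2, which makes the cholesteryl esters that Lipa can split, rose from 34.4 ± 2.30 to 90.8 ± 19.5 CPM (1.40, SE 0.16, adjusted p = 0.00016). At RF against LC 7 rose and 3 fell (1 and 5 with library totals alone). These counts were 2 and 4 without RF replicate 2, and 4 and 3 without LC replicate 1, 2 or 3 or RF replicate 1 or 3. The genes called were, among others, Ctsb (0.58, adjusted p = 0.0099; 0.074 with library totals alone), Soat2 (-1.39) and the lysosomal cholesterol transporter gene Npc1 (-0.61). Tfeb, a regulator of lysosomal genes that include Lipa, was at 12.2 ± 0.940, 17.2 ± 4.18 and 10.1 ± 1.34 CPM at AL, LC and RF. It did not pass at LC against AL (0.50, adjusted p = 0.055; 0.0060 with library totals alone) and fell at RF against LC (-0.77, adjusted p = 0.011).

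Of 20 regulators known to act on transcription of the lipases, 3 rose and 3 fell at LC against AL, close to the shares over all genes (16% and 15.6%). Without AL replicate 3 the counts were 0 and 1, without LC replicate 1 they were 1 and 1, and without AL replicate 4 they were 1 and 2. The median was 0.10 (0.42 with library totals alone, where 7 rose and none fell). Pparg, a receptor that induces Pnpla2 and G0s2 in adipocytes, fell from 19.6 ± 1.93 to 11.8 ± 0.889 CPM (-0.72, adjusted p = 0.0099; 0.096 with library totals alone). Sirt1, a deacetylase gene, rose (1.04, adjusted p = 0.011; 0.0505 without AL replicate 3). Prkaa2, an AMP-activated kinase subunit gene, fell at LC (-0.41, adjusted p = 0.025) and rose at RF against LC (0.81, adjusted p = 0.0014), and its fall was lost on library totals alone (0.63) and without AL replicate 3 (0.091), AL replicate 4 (0.095), LC replicate 1 (0.051) or LC replicate 2 (0.056). Ppara, the receptor of the fasting response, was at 412 ± 39.6, 339 ± 66.7 and 372 ± 40.5 CPM, and Foxo1, which induces Pnpla2 in fasting, at 34.0 ± 4.19, 37.8 ± 7.28 and 30.3 ± 7.64 CPM. Neither passed in any comparison, though on library totals alone Foxo1 was called at LC against AL (0.47, 0.049) and at RF against LC (-0.52, 0.044). At RF against LC 2 of 20 rose and 2 fell, or 1 and 1 without LC replicate 1 or RF replicate 2, with a median of 0.01 (-0.20 with library totals alone, where 1 rose and 6 fell). At RF against AL edgeR called 0 of the 118 genes tested in the 6 lists together, 18 had an unadjusted p below 0.05, DESeq2 called 6 and voom 4. The DESeq2 calls included Plin4 (-2.05), Sqstm1 (-0.66) and Npc1 (-0.53), which were lower, and Pnpla3 (2.64), which was higher. Voom also called Sqstm1 and Npc1. Among all 12789 genes tested, edgeR called 7, 1381 had an unadjusted p below 0.05, DESeq2 called 99 and voom 50.

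**Figure D5:**
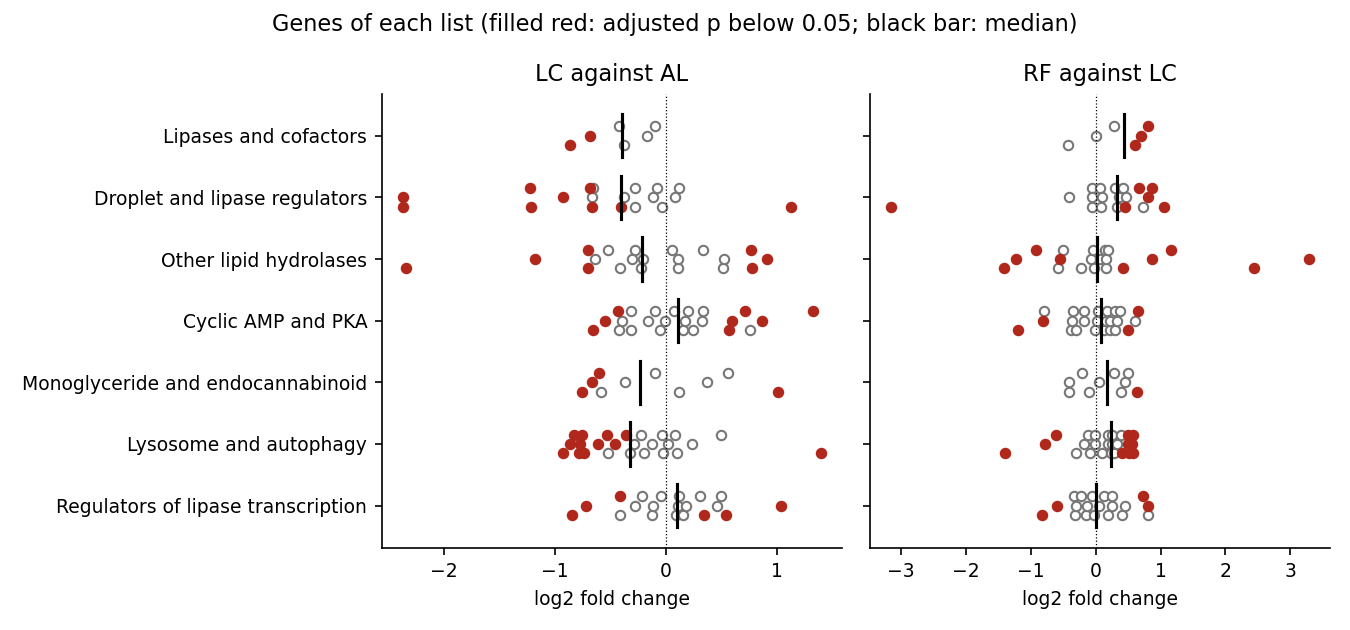
Log2 fold changes of the members and of the 6 fixed lists at LC against AL and at RF against LC, with 1 point per tested gene. Filled red points passed the adjusted threshold of 0.05 and black bars are medians, which for the members are -0.40 and 0.44.

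The genes whose pattern lay nearest to each member were found by the root mean square difference of log2 CPM, centred on each gene's mean, over the 10 libraries and 9302 candidate genes. Abhd5 was nearest to Atg3, of autophagosome formation (0.107), and Tram1, of the translocation channel of the endoplasmic reticulum (0.108), where the median over all candidates was 0.477. Lipa was nearest to the phosphatase gene Ppp1ca (0.078) and to Iah1, an esterase gene (0.091). Mgll was nearest to the mitochondrial oxoglutarate carrier gene Slc25a11 (0.104) and to Arf2 (0.111). Pnpla2 had looser neighbours in Abt1 (0.161) and Myh14 (0.165), as did G0s2 in Reep4 (0.138) and Cxcl12 (0.156) and Lipe in P2ry2 (0.131) and Tmem126b (0.135). Likeness over 10 libraries that share 3 groups describes their pattern alone.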

How the data were processed

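Poly(A)-enriched, unstranded liver RNA libraries were sequenced on the BGI DNBSEQ platform, per the labels' protocols. The authors deposited expected counts, of which 10.9% of values are not whole, and FPKM values, scaled by the authors for length and depth. Per the submitters' processing notes, the tools were HISAT and Bowtie2 and the build GRCm39, with neither versions nor roles. For the counting program, the sources used here give no name.

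Columns were matched to samples by library name. Counts were rounded, filtered with filterByExpr (12789 of 17359 genes kept), given TMM factors (trimmed mean of M values) and fitted for the 10 libraries together (edgeR 4.0.16, R 4.3.3, glmQLFit with robust estimation). The 3 comparisons were tested by its quasi-likelihood F test, with Benjamini-Hochberg adjustment over all genes tested and a threshold of 0.05. The SE was obtained by dividing the absolute log2 fold change by the root of F, and 95% intervals use the test's degrees of freedom. CPM is given as mean ± SD. Library totals of 13871533 to 15899479 counts set the counting precision, and 3 or 4 libraries per group set that of the means. The steps were tested on simulated counts. Within groups, Pearson's r across genes was 0.973 to 0.985, and the counts of the 12 library pairs differed by 28.7 to 64.7 times the sampling noise (chi-square over its degrees of freedom), so no library was treated as a copy.

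The members and lists were chosen with earlier results of these data known. All members were named, with the 3 genes of smallest p at LC against AL and the 2 at RF against LC of each list, 10 fixed genes and the 2 nearest in pattern to each member. Some genes the rule took are not described. The 20 alternatives were DESeq2 1.42.0, limma 3.58.1 (voom with sample weights, and log2 FPKM with offsets of 1 and 0.1), relative log expression factors, library totals alone, 2 filters, compared groups alone, a replicate block and leaving out each of 10 libraries. Annotation overlaps are from GENCODE M21 on GRCm38.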

Additional observations from a re-analysis of the deposited data

Results flagged for a closer look

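Among 40 sets of 4 LC values examined, 1 held a library far from the other 3, and chance alone marks about 1 in 20 such sets. LC replicate 1 had 39.2 CPM of Sirt1, against 17.97, 21.4 and 21.5 CPM for the other LC libraries. Without LC replicate 1 its log2 difference at RF against LC was -0.53 (adjusted p = 0.067), against -0.83 (0.038) with it. The call was also lost without AL replicate 2 (0.054), AL replicate 3 (0.055), AL replicate 4 (0.055), RF replicate 2 (-0.67, 0.14) or RF replicate 3 (0.12), and with the compared groups alone (0.077). None of the 6 members had such a library.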

How the results depend on the processing

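Abhd5 in both comparisons with LC, and Mgll at RF against LC, were called under all 20 alternatives, while Lipa was called under 15 of 20 at LC against AL and 13 of 20 at RF against LC. The number of members called at LC against AL, 2 of 6, was 1 with library totals alone and with both FPKM offsets and 4 with voom and sample weights, and leaving out a library gave 1 to 4, with 1 without AL replicate 3 or 4 and 4 without AL replicate 2. At RF against LC the number was 3, and 2 to 3 with a library left out. With library totals alone and without LC replicate 1 it was also 3, but with 2 higher and Pnpla2 lower. Of all genes, 4034 were called at LC against AL (2110 to 4353 with a library left out, 2110 without AL replicate 3 and 2557 without AL replicate 4), and 2821 at RF against LC (1435 to 3141, 1435 without RF replicate 2 and 1642 without RF replicate 3), where 19.8% of calls were higher with library totals alone, against 51.5%. At RF against AL 7 were called, and 99 with DESeq2, 50 with voom, 13 with no filter on low counts, 1 with either FPKM offset and 1 to 13 with a library left out. The cause of these differences was not tested. Of 2994 values of named genes under the alternatives, 128 lost a call and 45 gained one, and no called value changed sign, whereas uncalled values did. With a library left out, the log2 ratio of Pnpla2 to G0s2 differed by -0.41 to 0.23 at LC against AL, -0.92 to -0.62 at RF against AL and -1.01 to -0.37 at RF against LC. That of Abhd5 to G0s2 differed by -0.86 to -0.35, -0.50 to 0.02 and 0.20 to 0.56 in the same order. These ratios cannot pass a threshold of 0.05 at these sample numbers. As a check of pairing, the deviations of same-numbered libraries from their group means correlated at over 0.1 in 2 of 8 pairs. Both were of LC and RF, at 0.25 for replicates 1 and 0.18 for replicates 2, while replicates 3 had 0.05. Among 25 pairs with different numbers, 2 were over 0.1, the highest at 0.12. Not every same-numbered pair passed 0.1 and the labels tie the numbers to nothing shared, so no pairing was used. Even so, 5 of 10 libraries correlated best with their own number. With the replicate block, 3858, 5 and 3230 genes were called at LC against AL, RF against AL and RF against LC, and 2, 0 and 3 members.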
